A study of Mus musculus with 6 samples.

Results

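The interferon-induced effector genes described here are Mx1, Mx2, Rsad2, Cmpk2, Bst2, Isg20, Ifi27, Ifi27l2a, Ifi44 and Ifi35, which belong to none of the IFIT, OAS, GBP and IFITM families. They were taken by symbol from the deposited table of 55453 genes, and all 10 were in the table and among the 13680 genes tested. The libraries were made from bone marrow-derived macrophages (BMDM), cells grown from marrow with M-CSF or L929-conditioned medium (which of them is not stated for these libraries) and collected on day 7 of culture. Of the 6 libraries, 3 were of the genotype LysM cre PP2Ac fl/fl, called PP2Ac-KO or KO here, and 3 of WT mice, called PP2Ac-WT or WT, all on the C57BL/6 strain. In the KO mice, cre is expressed from the Lysozyme 2 promoter in myeloid cells and removes the floxed exon of Ppp2ca, the gene of a catalytic subunit of protein phosphatase 2A. The WT mice came from another supplier, and the study describes no cre or floxed allele in them. Mice in the study were 6 to 10 weeks old. The study describes its RNA-Seq on BMDM of both genotypes treated with cGAMP, an agonist of STING, at 10 μg/mL for 4 hours, while the sample labels give no treatment. No untreated library was analysed here, so that no value measures the response to cGAMP itself. The comparison gives the difference between genotypes in 1 condition, and a difference already present without cGAMP cannot be told apart from a changed response to it.

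STING activation induces type I IFN, which binds its receptor on the same and neighboring cells and activates transcription factors. These bind the IFN-stimulated response element (ISRE) in the promoters of antiviral genes. Mx proteins are dynamin-like GTPases that block viral nucleocapsids. Viperin, encoded by Rsad2, is a radical SAM enzyme that makes a chain-terminating analog of CTP, and Cmpk2 encodes a mitochondrial nucleotide kinase whose gene lies beside Rsad2. Bst2 encodes tetherin, which holds budding virions at the cell surface, and Isg20 encodes a 3′ to 5′ exonuclease of single-stranded RNA and DNA. Ifi27 and Ifi27l2a encode small hydrophobic membrane proteins, and Ifi35 a binding partner of NMI.

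RefSeq promoter sequences of build GRCm38.p6 were matched for 6 of the 10 genes, each 300 bases long, from 250 bases before to 50 after a transcription start. Those of Rsad2 and Bst2 are shown because they hold the ISRE core, that of Cmpk2 because it is the neighbor of Rsad2, and that of Ifi44 because this gene differed most between genotypes. Capitals mark AAANNGAAA, on either strand and with overlaps allowed, together with the G before it where there is one. With that G the match was taken as the ISRE core.
Rsad2, chr12:26456403-26456702, reverse strand: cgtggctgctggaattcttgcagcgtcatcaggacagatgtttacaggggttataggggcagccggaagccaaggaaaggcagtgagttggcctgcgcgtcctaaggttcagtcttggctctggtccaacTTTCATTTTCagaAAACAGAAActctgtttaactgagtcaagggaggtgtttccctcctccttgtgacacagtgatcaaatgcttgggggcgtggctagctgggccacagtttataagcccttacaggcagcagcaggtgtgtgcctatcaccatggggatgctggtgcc
Cmpk2, chr12:26468965-26469264, forward strand: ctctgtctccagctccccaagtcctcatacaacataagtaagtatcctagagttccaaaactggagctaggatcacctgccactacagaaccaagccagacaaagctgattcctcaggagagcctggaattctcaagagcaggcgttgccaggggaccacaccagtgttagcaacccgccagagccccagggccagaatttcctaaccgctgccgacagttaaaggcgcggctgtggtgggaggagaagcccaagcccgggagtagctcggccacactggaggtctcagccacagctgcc
Bst2, chr8:71537423-71537722, reverse strand: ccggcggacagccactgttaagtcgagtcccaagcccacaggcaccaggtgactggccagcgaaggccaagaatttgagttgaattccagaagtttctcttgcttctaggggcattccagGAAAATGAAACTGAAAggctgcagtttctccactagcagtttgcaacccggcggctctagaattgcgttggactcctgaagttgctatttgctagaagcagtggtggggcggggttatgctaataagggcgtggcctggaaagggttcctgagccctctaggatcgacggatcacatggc
Ifi44, chr3:151749861-151750160, reverse strand: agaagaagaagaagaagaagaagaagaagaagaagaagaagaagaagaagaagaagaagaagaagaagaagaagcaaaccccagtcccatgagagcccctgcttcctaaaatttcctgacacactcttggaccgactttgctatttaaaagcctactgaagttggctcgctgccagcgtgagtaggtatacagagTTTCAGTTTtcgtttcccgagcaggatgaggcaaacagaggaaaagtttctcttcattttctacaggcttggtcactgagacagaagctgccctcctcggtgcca
The ISRE core occurred in the promoters of 2 of the 6 genes, Bst2 and Rsad2, and in 3.44% of all 32851 promoters. In Bst2 there were 2 overlapping matches, whose first bases lay 130 and 124 bases before the start. In Rsad2 a single match, on the opposite strand, spans from 120 bases before the start toward the gene. AAANNGAAA, with or without the G, occurred in 4 of the 6 genes, also in Ifi44 at 55 and in Isg20 at 62 bases before a start. Isg20 has 3 starts, of which 1 window held it, while each other gene has 1, and the share of all promoters counted singly was 10.6%. This string was not found in these windows of Cmpk2 and Ifi35. A further string searched, TTCNNNGAA, occurred in 3 of the 6 genes, Bst2, Ifi35 and Isg20, and in 8.3% of all promoters. It is not marked in the sequences shown. These matches describe letters and not binding.

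Libraries held 35257156 to 46647682 counts on genes in PP2Ac-KO and 38235133 to 47390899 in PP2Ac-WT. Counts were scaled by library size with the TMM method and are given as CPM, and 3 counts, taken as the smallest detectable signal, equaled 0.0604 to 0.0909 CPM. Errors are SD of 3 libraries, and nothing in the labels says whether these came from separate mice. The study describes cell experiments in general as biological triplicates, without saying whether by mouse or by culture, so that p-values measure the spread between these libraries. Ppp2ca was counted at 1.01 ± 0.0988 CPM in the KO libraries and 205.6 ± 8.51 CPM in the WT libraries (SD, n = 3).

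Of the 10 effector genes, 9 were higher in the KO libraries than in the WT libraries and 1, Ifi27, did not pass the test (edgeR's quasi-likelihood test, adjusted p under 0.05 over all genes tested). Of all genes tested, 18.1% were higher by the same rule. At a log2 fold change over 1 and adjusted p under 0.01, 6 of the 10 were higher, against 3.36% of all genes. These were Ifi44, Ifi27l2a, Isg20, Cmpk2, Mx1 and Bst2, while Rsad2 and Ifi35 lay just under the fold threshold. Without WT library 3, Mx1 and Bst2 also fell under it, leaving 4 genes, and without WT library 1 Rsad2 and Ifi35 passed it, giving 8. In the 9 genes every KO library lay above every WT library, which held for 24.0% of all genes. No effector gene was lower by edgeR, 0 at an unadjusted p under 0.05, and 0 by DESeq2 and limma-voom, against 19.0% of all genes lower by edgeR and 26.8% with every KO library under every WT library. With the replicate number entered as a block, 9 genes were again higher, against 24.4% of all genes, and 6 passed the stricter rule, against 3.74%. The median log2 fold change of the 10 genes was 1.11, and that of all genes tested was -0.02.

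**Figure D1:**
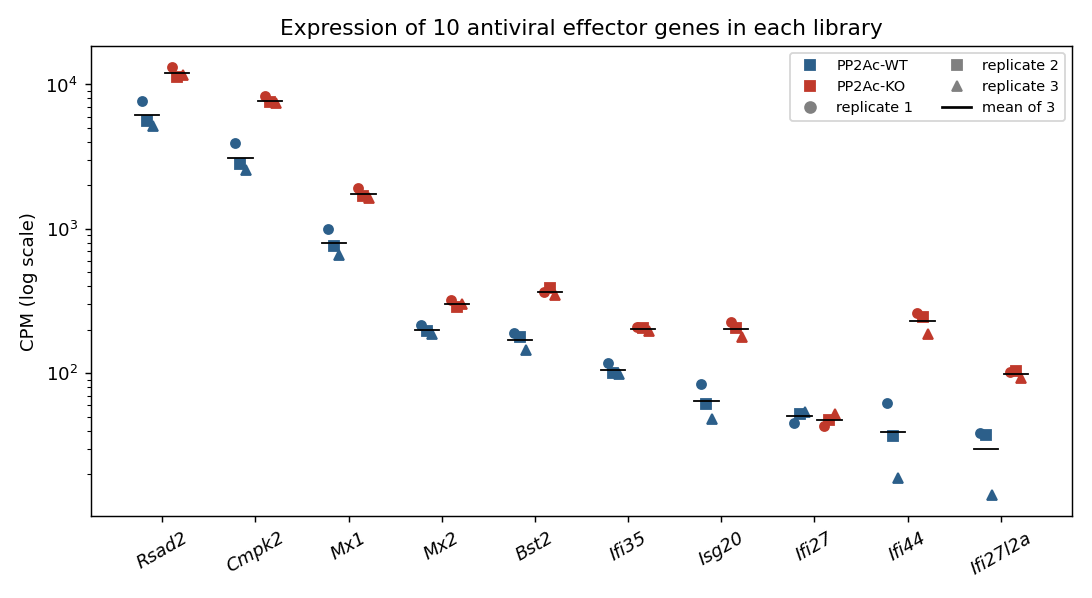
CPM on a log axis for the 10 effector genes in each of 6 libraries, ordered by their mean in the WT libraries, with PP2Ac-WT in blue, PP2Ac-KO in red, a marker shape for each replicate number and a black line at each mean of 3. In 9 genes the red points lie above the blue, and in Ifi27 they overlap.

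Mx1 lies on the reverse strand of chromosome 16 from 97447035 to 97462907 in GRCm38, and Mx2 on the forward strand from 97535308 to 97560900, their starts 72401 bases apart. In most inbred laboratory mice, C57BL/6 included, neither locus encodes a functional full-length protein. RefSeq lists both as transcribed pseudogenes, whereas GENCODE M21 lists Mx1 as protein coding and Mx2 as a polymorphic pseudogene. The values therefore report transcription of the loci and not Mx activity. Mx1 was counted at 1918, 1695 and 1631 CPM in KO libraries 1, 2 and 3, and at 991.3, 759.5 and 658.9 CPM in WT libraries 1, 2 and 3. The groups were separated by more than the range within either of them. Mx1 thus differed by 1.12 on the log2 scale (standard error, SE, 0.14, edgeR adjusted p = 3.87e-04). Mx2 was counted at 319.2, 288.7 and 299.7 CPM in the KO libraries and at 216.3, 195.6 and 187.2 CPM in the WT libraries. The groups did not overlap, but lay closer together than for Mx1. For Mx2 the log2 fold change was 0.60 (SE 0.08, adjusted p = 4.18e-04), the smallest among the 9 genes that rose. Of the windows of 50 bases in transcripts of Mx1, 3.86% also occur in those of Mx2, so that a small part of the reads could have been assigned to the wrong gene or to neither.

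Rsad2 lies on the reverse strand of chromosome 12 from 26442746 to 26456452, and Cmpk2 on the forward strand from 26469204 to 26479837. The genes point away from each other, and their starts are 12752 bases apart. Rsad2 was counted at 13146, 11341 and 11707 CPM in the KO libraries and at 7658, 5562 and 5138 CPM in the WT libraries. The groups did not overlap. By number of counts Rsad2 ranked between 5 and 6 among all genes in the KO libraries and between 6 and 11 in the WT libraries. It took 1.06% to 1.20% of all counts in the KO libraries and 0.563% to 0.803% in the WT libraries. On the log2 scale Rsad2 differed by 0.98 (SE 0.14, adjusted p = 8.38e-04). Cmpk2 was counted at 8268, 7518 and 7447 CPM in the KO libraries and at 3940, 2797 and 2559 CPM in the WT libraries. Its libraries did not overlap either, and the gap between the genotypes was wider than the range within either. Cmpk2 had a log2 fold change of 1.32 (SE 0.15, adjusted p = 2.48e-04). Cmpk1, which encodes the cytosolic UMP-CMP kinase, had 162.7 ± 6.13 CPM in the KO libraries and 137.2 ± 12.8 CPM in the WT libraries (SD, n = 3). Its log2 difference was 0.25 (SE 0.08, edgeR adjusted p = 0.0344). Together the 10 effector genes took 2.06% to 2.26% of all counts in the KO libraries and 0.978% to 1.40% in the WT libraries, most of it from Rsad2 and Cmpk2.

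Bst2 lies on the reverse strand of chromosome 8 from 71534255 to 71537456. It was counted at 366, 387.4 and 346.9 CPM in the KO libraries and at 191.5, 178.4 and 144.1 CPM in the WT libraries. The KO libraries were tightly grouped and did not overlap the WT libraries. Its log2 fold change was 1.10 (SE 0.10, adjusted p = 1.24e-04). Bst2 is also a surface antigen of plasmacytoid dendritic cells. Of 5 markers of these cells, 4 were tested and 2, Siglech and Pacsin1, were higher in the KO libraries, against 18.1% of all genes. Siglech had 12 to 29 counts per library and Pacsin1 2 to 42. Ccr9 and Cox6a2 did not pass the test (log2 fold change 0.47 and -0.17, edgeR adjusted p = 0.364 and 0.708). Summed over the 5 markers the level was 1.99 to 2.27 CPM in the KO libraries and 0.874 to 1.49 CPM in the WT libraries, and Klk1 had at most 1 count in a library. The part of such cells in the level of Bst2 was not tested, and in bulk libraries more cells of a type and more RNA per cell cannot be told apart.

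Isg20 occupies positions 78913424 to 78920396 on the forward strand of chromosome 7. It was counted at 225.1, 206.2 and 179.6 CPM in the KO libraries and at 84.3, 61.1 and 48.6 CPM in the WT libraries. Here too the gap between the genotypes exceeded the range within each. Its log2 fold change was 1.65 (SE 0.18, adjusted p = 1.94e-04). Aen, a related exonuclease gene, differed by 0.30 on the log2 scale (SE 0.07, adjusted p = 0.00698), and Isg20l2 by 0.11 (SE 0.06, adjusted p = 0.204).

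Ifi44 lies on the reverse strand of chromosome 3 from 151730922 to 151749960 and encodes a cytoplasmic protein with a GTP-binding motif. It was counted at 260.6, 244.6 and 186.6 CPM in the KO libraries and at 62.0, 36.7 and 18.8 CPM in the WT libraries. The lowest KO library stood far above the highest WT library, and relative to their mean the WT libraries were spread more widely than for any other effector gene. Its log2 fold change of 2.55 was the largest of the 10 (SE 0.35, adjusted p = 5.81e-04). It was 2.22 without WT library 3 and 3.05 without WT library 1. The neighboring relative Ifi44l had at most 1 count in any library and could not be compared.

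Ifi35 occupies positions 101448407 to 101458698 on the forward strand of chromosome 11. It was counted at 209.1, 206.1 and 194.9 CPM in the KO libraries and at 117.3, 99.9 and 98.9 CPM in the WT libraries. It had the smallest adjusted p of the 10 genes, with little spread in either group. Its log2 fold change was 0.95 (SE 0.08, adjusted p = 7.59e-05). The antisense gene Gm11626 within it had 2 to 6 counts per library. Nmi, whose product binds IFI35, was also higher, with a rise from 40.2 ± 9.01 to 88.6 ± 3.26 CPM (SD, n = 3). The log2 difference for Nmi was 1.14 (SE 0.13, adjusted p = 2.83e-04).

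Of the IFI27 pair, Ifi27l2a was higher in the KO libraries and Ifi27 did not pass the test. On chromosome 12, Ifi27 occupies positions 103434211 to 103440239 of the forward strand and Ifi27l2a 103442167 to 103443680 of the reverse strand, so that their 3′ ends face each other across 1927 bases. Ifi27 was counted at 42.9, 47.6 and 52.0 CPM in the KO libraries and at 45.4, 52.4 and 54.1 CPM in the WT libraries. The groups overlapped, and the log2 fold change was -0.09 (SE 0.09, adjusted p = 0.455). Ifi27l2a was counted at 101.3, 103.0 and 92.6 CPM in the KO libraries and at 38.5, 37.5 and 14.4 CPM in the WT libraries. The groups did not overlap, and WT library 3 lay far under the other two WT libraries. Ifi27l2a had a log2 fold change of 1.71 (SE 0.29, adjusted p = 0.00174), and 1.38 without that library. Transcripts of the pair share 0 windows of 50 bases, so that their reads could be assigned apart from each other. Another gene of the family, Ifi27l2b, had at most 1 count per library. Windows shared with its transcripts were not sought, so that reads common to it and Ifi27l2a could have been missed.

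Counts per kilobase of the longest transcript that GENCODE M21 types as protein coding or, for Mx2, as polymorphic pseudogene (2476 bases) were used to compare genes within a library, where depth and scaling cancel. The ratio of Ifi27 to Ifi27l2a was 0.201, 0.219 and 0.266 in KO libraries 1, 2 and 3, and 0.558, 0.663 and 1.79 in the WT libraries. The log2 ratio differed by -1.94 between genotypes, from -0.20 ± 0.91 in the WT libraries to -2.14 ± 0.21 in the KO libraries (SD, n = 3). The ratio of Mx1 to Mx2 was 4.40, 4.30 and 3.98 in the KO libraries and 3.35, 2.84 and 2.57 in the WT libraries. Its log2 value was higher in the KO libraries by 0.54, from 1.54 ± 0.19 to 2.08 ± 0.07 (SD, n = 3). The ratio of Cmpk2 to Rsad2 was 0.743, 0.783 and 0.752 in the KO libraries and 0.608, 0.594 and 0.589 in the WT libraries, and its log2 value was higher by 0.35, from -0.74 ± 0.02 to -0.40 ± 0.04 (SD, n = 3). No ratio overlapped between genotypes. With 3 libraries against 3, each exact permutation test (two-sided) gave p = 0.1, the smallest this design allows, so that none could pass 0.05. Adjusted over the 3 ratios the value is also 0.1.

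**Figure D2:**
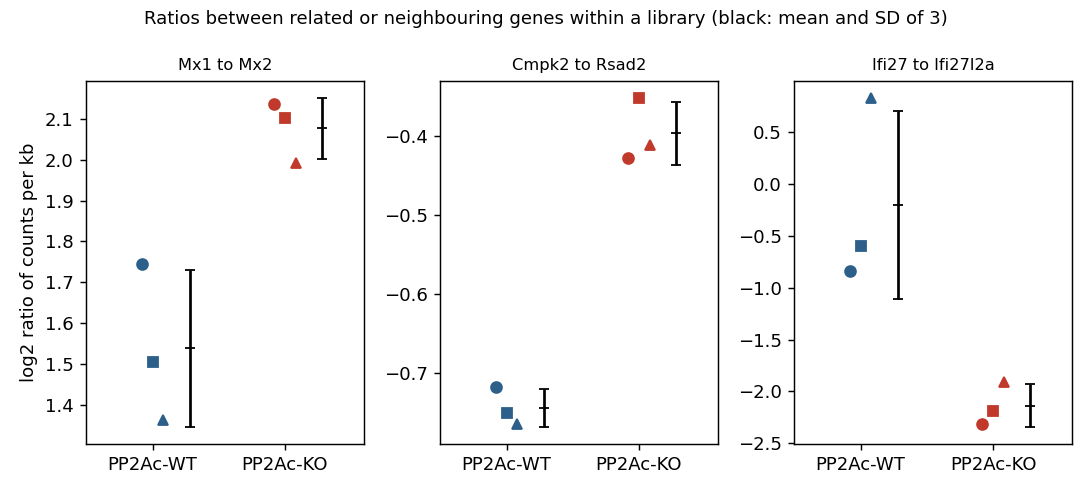
Log2 ratio of counts per kilobase between paired genes within each library, with PP2Ac-WT in blue, PP2Ac-KO in red, a marker shape for each replicate number (circle 1, square 2, triangle 3) and the mean and SD of 3 in black. The y axes differ between panels. Ratios of Mx1 to Mx2 and of Cmpk2 to Rsad2 are higher in the KO libraries, and that of Ifi27 to Ifi27l2a is lower.

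On the same scale of CPM per kilobase, the order of levels in the WT libraries was Rsad2 (1618 ± 356.7), Cmpk2 (968.3 ± 230.6), Mx1 (237.3 ± 50.4), Bst2 (216.3 ± 30.9), Mx2 (80.7 ± 6.05), Ifi35 (77.4 ± 7.56), Ifi27l2a (65.1 ± 29.5), Isg20 (59.5 ± 16.7), Ifi27 (51.8 ± 4.75) and Ifi44 (13.5 ± 7.46) (SD, n = 3). Ranges of neighbors overlapped between Mx1 and Bst2 and throughout from Mx2 to Ifi27. In PP2Ac-KO, Rsad2 (3190 ± 252.2), Cmpk2 (2420 ± 142.2), Mx1 (516.4 ± 44.5) and Bst2 (463.1 ± 25.6) came in the same order, Mx1 and Bst2 again overlapping. They were followed by Ifi27l2a (213.7 ± 12.05) and Isg20 (187.3 ± 21.0), whose ranges overlapped, and then by Ifi35 (149.3 ± 5.49), Mx2 (122.2 ± 6.24), Ifi44 (79.2 ± 13.4) and Ifi27 (48.6 ± 4.61). Thus Ifi44 was lowest in the WT libraries and Ifi27 in the KO libraries, and in each case its libraries lay under those of every other gene. With the length of all exons merged in place of the longest transcript, the first 4 and the last 2 places of both orders were unchanged, and places between them moved.

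The 9 genes that rose also shared a pattern among the WT libraries. In each of the 9, WT library 1 was highest and library 3 lowest, an order found in 24.8% of all genes tested. Ifi27 had the reverse order, also in the KO libraries (42.9, 47.6 and 52.0 CPM in libraries 1, 2 and 3). On the log2 scale, the median effector gene lay 0.34 above its group mean in WT library 1 and at -0.24 from it in library 3. In PP2Ac-KO the medians were closer to 0, at 0.09, 0.01 and -0.07 in libraries 1, 2 and 3. There too library 1 was highest most often, in 7 of the 10 genes. In KO library 3 only 1 gene lay above its group mean. The share of all genes with such an order was not taken for the KO libraries, so that these counts describe the effector genes only. Ifnb1, which encodes IFN-β, had 8.86, 5.91 and 4.32 CPM in WT libraries 1, 2 and 3 and 19.2, 13.1 and 15.4 CPM in the KO libraries. It was thus highest in WT library 1 and lowest in WT library 3, as the 9 genes were. Among the KO libraries Ifnb1 was lowest in library 2, where only 2 of the 10 effector genes were lowest. The coefficient of variation was larger in the WT libraries than in the KO libraries for 9 of the 10 genes, from 7.50% for Mx2 to 55.4% for Ifi44 in the WT libraries, against 3.68% for Ifi35 to 16.9% for Ifi44 in the KO libraries. In Ifi27 it was 9.16% and 9.48%. The SD on the log2 scale was larger in the WT libraries for 55.9% of all genes tested.

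**Figure D3:**
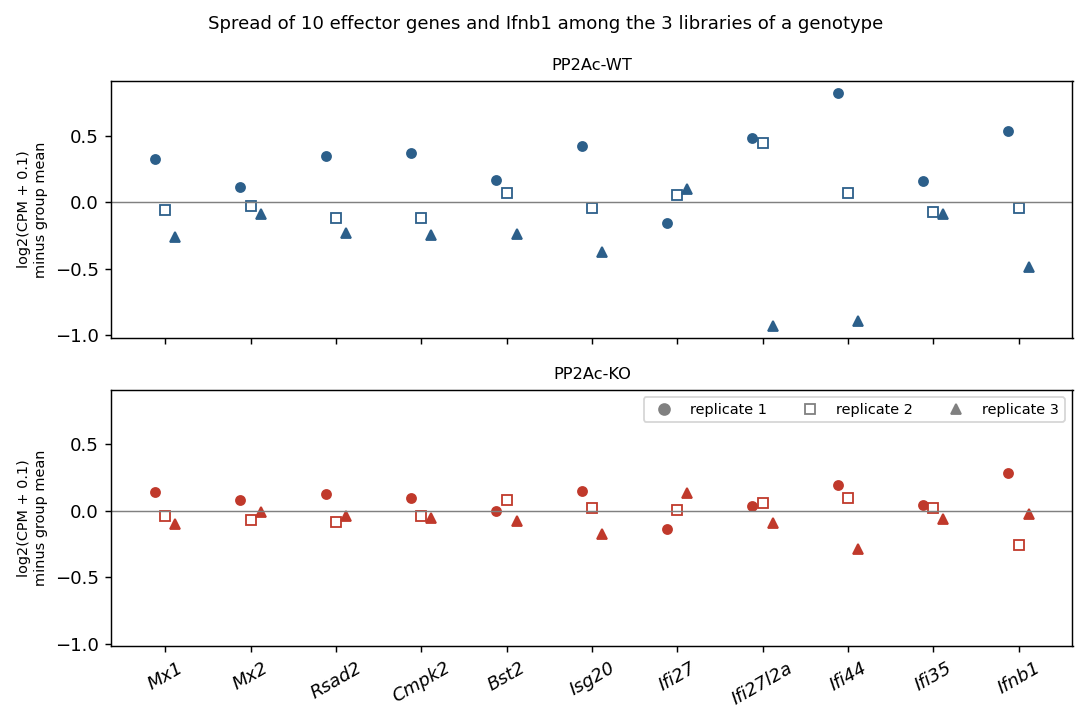
Deviation of log2(CPM + 0.1) from the mean of its genotype for each of the 10 effector genes and Ifnb1, with PP2Ac-WT in the upper and PP2Ac-KO in the lower panel and a marker for each replicate number. In PP2Ac-WT, library 1 (circles) is highest and library 3 (triangles) lowest in all genes shown except Ifi27, and in all genes shown except Ifi27 the libraries lie closer together in PP2Ac-KO.

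Genes whose levels followed the effector genes most closely were found by the root mean square difference, over 6 libraries, between a gene's centered log2(CPM + 0.1) and the median centered value of the 10 genes. The 5 closest were Il18bp (0.0206), Tap1 (0.0309), Slc25a12 (0.0363), Usp12 (0.0381) and Ccrl2 (0.0401), in log2 units. Il18bp encodes a binding protein that neutralizes IL-18, and Tap1 a subunit of the peptide transporter for MHC class I. Their log2 fold changes were 1.16 for Il18bp, 1.09 for Tap1, 1.07 for Slc25a12, 1.10 for Usp12 and 1.07 for Ccrl2. The genotype difference is part of this measure, which says nothing of shared control.

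Of 14 genes of type I IFN signaling, 11 were higher in the KO libraries and 0 lower (median on the log2 scale 0.68). Of all genes tested, 18.1% were higher and 19.0% lower. In a fit with replicate numbers as a block 13 of the 14 were higher, against 24.4% of all genes. Irf7, the factor that amplifies IFN production, was higher by 1.53 on the log2 scale (SE 0.13, adjusted p = 9.07e-05), Ifnb1 by 1.32 (SE 0.23, adjusted p = 0.00200) and Usp18, which removes ISG15 and restrains the receptor, by 1.27 (SE 0.15, adjusted p = 2.81e-04). Stat2 and Irf9, which encode IFN-activated factors, rose by 0.65 and 0.28 on the log2 scale (adjusted p = 7.62e-04 and 0.00697). For Irf3 the value was -0.05 (SE 0.07, adjusted p = 0.636). Those of Ifnar1 and Jak1 were 0.19 and 0.14 (adjusted p = 0.0565 and 0.181, and 0.00222 and 0.0176 with the block). The lists of signaling genes, other antiviral effectors and relatives of the effector genes were made with earlier results of these data known. Their counts are thus descriptions and not tests. All 17 of the other antiviral effectors in the table were higher, against 18.1% of all genes tested, with a median log2 fold change of 0.88. Their values ran from 0.47 for Zc3hav1 to 2.26 for Ch25h, which encodes cholesterol 25-hydroxylase. Next were Ly6e at 1.51 and Mov10 at 1.28. Of the relatives of the effector genes, 8 were tested, 3 were higher (Nmi, Aen and Cmpk1) and 1 lower, Dnm1, a neuronal dynamin with 8 to 29 counts per library (log2 fold change -1.09, SE 0.33, adjusted p = 0.0268). For Dnm2, the widely expressed dynamin, it was -0.02 (SE 0.06, adjusted p = 0.804).

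**Figure D4:**
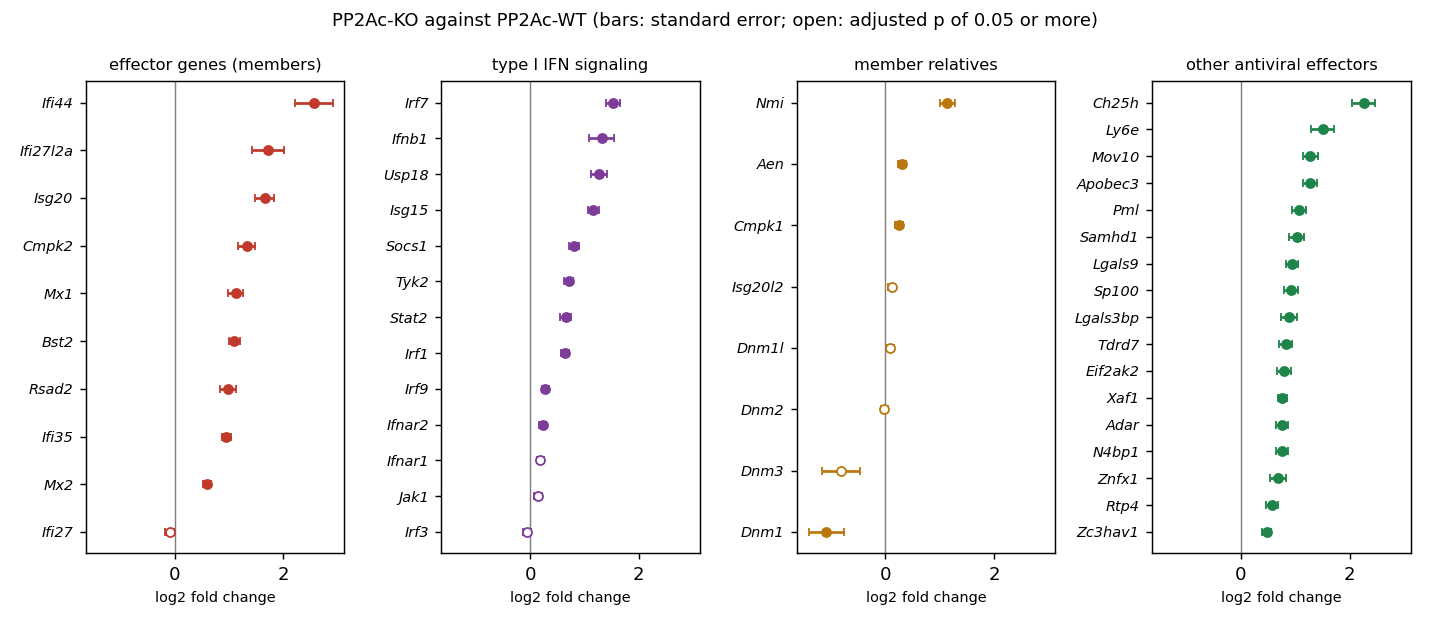
Log2 fold change of PP2Ac-KO against PP2Ac-WT with its standard error for the effector genes, genes of type I IFN signaling, relatives of the effector genes and other antiviral effectors. Filled points have an adjusted p under 0.05. Among the effector genes Ifi44 is highest at 2.55 and Ifi27, at -0.09, is the open point.

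Markers of other cells were measured beside these values. All 5 fibroblast markers were lower in the KO libraries, against 19.0% of all genes tested. Their summed level was 23.3 to 34.96 CPM in the KO libraries and 76.5 to 120.6 CPM in the WT libraries. The log2 fold changes were -2.10 for Col1a1, -2.05 for Col1a2 and -1.95 for Col3a1. Within the WT libraries the sum was 111.0, 120.6 and 76.5 CPM in libraries 1, 2 and 3. Library 3 was thus lowest, as in the 9 effector genes, but library 2 was highest and not library 1. Of all genes tested, 24.8% were lowest in library 3 and highest in library 1, and 12.4% lowest in library 3 and highest in library 2. Macrophage markers summed to 7294 to 7483 CPM in the KO libraries and 6170 to 6801 CPM in the WT libraries. Of these, 2 of 7 were higher, Fcgr1 (log2 fold change 0.70) and Mertk (0.27), against 18.1% of all genes tested. Adgre1, Cd68, Csf1r, Lyz2 and Itgam did not pass the test (edgeR adjusted p from 0.0976 to 0.516). Their log2 fold changes were 0.10, 0.08, 0.18, 0.28 and -0.09. Fcgr1 alone gave 964.1 to 1004 CPM of the sum in the KO libraries and 549.3 to 691.7 CPM in the WT libraries. With the replicate block 4 of 7 were higher, against 24.4% of all genes. Of 3 tested markers of conventional dendritic cells, Dpp4 (log2 fold change 2.61) and Clec9a (1.25) were higher, against 18.1% of all genes. Flt3, also tested, did not pass (log2 fold change 0.19, edgeR adjusted p = 0.791). Per library Dpp4 had 12 to 137 counts, Clec9a 8 to 54 and Flt3 8 to 36. The sum over that list was 2.54 to 5.61 CPM in the KO libraries and 1.03 to 1.85 CPM in the WT libraries. Dpp4 alone gave 1.37 to 3.23 CPM of it in the KO libraries and 0.276 to 0.503 CPM in the WT libraries. No marker of T and NK, mast or erythroid cells reached the level for testing, Ly6g, Cd8a and Mcpt4 had 0 counts in every library, and the 1 tested marker each of neutrophils and B cells did not pass the test. The summed level of each of these 5 lists was at most 1.34 CPM in any library. The part of these differences in the levels of the effector genes was not tested.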

How the data were processed

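RNA-Seq libraries of poly(A) RNA were prepared with a directional kit and read from either end over 150 bases. The authors deposited raw counts of reads per gene symbol for 6 libraries, without normalization. The submitters' processing notes name the builds mm10 and GRCm38 and fastp 0.20.0, kallisto 0.46.1, STAR 2.7.1a, HTSeq 0.11.2, edgeR 3.34.0 and limma 3.48.3, without saying which made the table. The annotation release and strand setting are not given in the sources used here. Of the symbols, 98.3% occur in GENCODE M21, which was used for coordinates and lengths.

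Tests used edgeR 4.0.16 in R 4.3.3. After filterByExpr (minimum count 10, minimum total 15) and TMM scaling, the effect of genotype was tested by the quasi-likelihood functions glmQLFit and glmQLFTest, with Benjamini-Hochberg adjustment over 13680 genes. Depth ran from 35257156 to 47390899 counts, and floors cover counting error only. Chi-square per degree of freedom between any 2 libraries of a genotype was 9.50 to 44.9, so no library was a copy. Both genotypes carry replicate numbers 1, 2 and 3 in the labels. Deviations from the group means correlated across genes at 0.323, 0.171 and 0.362 for same-numbered libraries, so the numbers were treated as pairing them in an alternative fit. Tests were also rerun with RLE or upper-quartile scaling, without a filter, with 10 or more counts required of every library, leaving out single libraries, and with DESeq2 1.42.0 and limma-voom (limma 3.58.1). Library totals without TMM were added after seeing the data. Scripts were tested on simulated data.

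All 10 genes are named, with Ppp2ca, and for each further list the 3 genes with the largest change that passed the test, any gene of the signaling and relatives lists, and the 5 closest by profile. Zc3hav1, Gm11626, Siglech, Pacsin1, Klk1, Ccr9, Cox6a2 and markers at 0 counts were named after their values were seen. Of the 18 other antiviral effectors listed, 17 were in the table. Genes and lists were chosen with earlier results of these data known. Motifs were chosen with the sequences known. Some listed genes are not reported here by name or drawn in the plots, though the counts over lists include them.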

Additional observations from a re-analysis of the deposited data

How the results depend on the processing

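In each of the 14 alternatives, 9 effector genes were higher at an adjusted p under 0.05, the same 9 genes, and no gene changed sign. The median log2 fold change of the 10 genes ran from 0.90 with library totals to 1.24 without PP2Ac-WT library 1. With the replicate number as a block, 9 genes were higher, 6 passed the stricter threshold as in the fit without it, and the adjusted p of Ifi27 was 0.0904, so no call on an effector gene changed. The number past the stricter threshold was 4 with library totals, 7 with RLE scaling and with DESeq2, and 4 to 8 with a library left out. The ratios kept their direction with each library left out, at 0.45 to 0.64 for Mx1 to Mx2, 0.32 to 0.36 for Cmpk2 to Rsad2 and -2.26 to -1.42 for Ifi27 to Ifi27l2a on the log2 scale. Library totals in place of TMM moved the median of all genes to -0.24. In that setting 1 effector gene was lower, Ifi27, with a log2 fold change of -0.31 (adjusted p = 0.0253 from edgeR). Relative to the median of all genes Ifi27 was then at -0.07, as with TMM. Over all genes, 2470 were higher and 2604 lower with TMM, 2653 and 2425 with RLE scaling, 2095 and 3356 with upper-quartile scaling, and 1503 and 6125 with library totals.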
